A study of Homo sapiens with 18 samples.

Results

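Amino acid transporters other than SLC7A11 were examined in U87MG, a widely used human cell line from a glioblastoma of the brain, with and without the ferroptosis inducer Erastin. A gene was a member when its Ensembl identifier mapped to one of the symbols SLC1A1 to SLC1A7 or to a gene of the SLC7A, SLC36A, SLC38A or SLC43A series, with SLC7A11, pseudogenes and antisense or intronic transcripts left out. Of the 58302 genes in the count table, 37 were members: 7 of the SLC1 family, 12 of SLC7, 4 of SLC36, 11 of SLC38 and 3 of SLC43. Control cells were U87 cells labelled WT with no treatment named, and treated cells were the same line given 10 μM Erastin for 72 h. Each group held 2 RNA-seq libraries, named below as control 1, control 2, Erastin 1 and Erastin 2. No vehicle is named in the labels of the control libraries. The line is 1 tumour-derived culture without the other cells of brain tissue, and the treatment is a single dose at a single time.

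Many solute carriers of these families move amino acids across the plasma membrane, or out of the lysosome. Many of them do so by coupling to sodium or proton gradients or by exchanging one amino acid for another. Several SLC7 proteins are light chains that reach the cell surface only when paired with a glycoprotein heavy chain, and SLC3A2 (CD98) is the heavy chain shared by SLC7A5, SLC7A6, SLC7A7, SLC7A8, SLC7A10 and by SLC7A11, the cystine-glutamate exchanger of system Xc- that Erastin inhibits. In astrocytes, the glutamate carriers SLC1A2 and SLC1A3 are known for clearing extracellular glutamate. Many of the neutral amino acid carriers are known targets of the transcription factor ATF4, which acts when amino acids run short.

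The counts on genes totalled between 29412656 and 31513519 per library. A gene was called upregulated when its log2 fold change, Erastin over control, was 1 or more and downregulated when it was −1 or below, provided that edgeR's quasi-likelihood test across 16751 genes gave an adjusted p under 0.05. Standard errors are abbreviated SE. A gene with an adjusted p under 0.05 is said to have passed the test whatever its fold change. Levels are given as CPM (counts relative to the TMM-adjusted library size) per kilobase of exon wherever genes are set against each other. Of 18 markers of brain, glioma and other cells, 12 were tested. Glial GFAP and OLIG2 had 41 to 88 counts per library, and S100B and AQP4 had 0 to 2. The microglial genes PTPRC and AIF1 had 0 or 1, and microglial CD68 had 7 to 22. Of the stem markers, SOX2 had 0 to 6, and NES had 1277 and 972 in control cells and 105 and 77 after treatment. Neuronal SNAP25 had 1070 and 1215 in control cells and 95 and 135 after treatment. The neuronal genes RBFOX3 and SYP had 2 to 9 and 32 to 54. Of the mesenchymal glioma markers, CD44 had 42924 and 43669 counts in control cells and 31559 and 35625 after treatment. VIM had 77887 and 77105 in control cells and 48117 and 54053 after treatment, and both passed the test with lower expression. FN1 had 151697 and 168464 in control cells and 14138 and 16332 after treatment. CHI3L1 had 5639 and 6833 in control cells and 1266 and 1324 after treatment. The markers CHI3L1, FN1, SNAP25, NES and PECAM1 were called downregulated and VWF upregulated. Endothelial PECAM1 had 138 and 188 counts in control cells and 31 and 33 after treatment. Endothelial VWF had 4 in each control library and 17 and 32 after treatment, so it was tested only because of its counts in treated cells. The summed marker level was 993 and 1017 CPM per kilobase in control cells and 459 and 492 after treatment, and its part in the results below was not tested. As these are bulk libraries, a lower value of a gene may reflect fewer cells that express it or less of its RNA per cell, and these cannot be told apart.

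Of the 37 members, 22 had enough counts to be tested and 15 did not. In control cells SLC38A2, a sodium-coupled carrier of small neutral amino acids, had the highest level of all members, at 150.7 ± 2.15 CPM per kilobase (SD, n = 2). SLC1A5, a main glutamine carrier of many tumour cells, followed at 45.7 ± 3.55, and SLC38A1 came next at 40.9 ± 1.35. SLC7A1, a carrier of arginine and lysine, stood at 27.03 ± 0.732, and SLC43A3, a carrier of purine nucleobases despite its family, at 20.1 ± 0.531. The ranges of these 5 genes over the control libraries did not meet. Their order is less sure than this, as reads on exons shared with another gene were not counted. Such exons make up 23.4% of the exon bases of SLC1A5 and 29.9% of those of SLC43A3, whose levels may be too low in either group. SLC38A10 at 14.5 ± 2.73 and SLC7A5 at 14.2 ± 2.22 came next, and their ranges overlapped.

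In Erastin-treated cells SLC38A2 was still highest, at 108.9 ± 2.35 CPM per kilobase (SD, n = 2). SLC38A1 at 59.7 ± 1.61 and SLC1A5 at 59.3 ± 2.33 followed with overlapping ranges. SLC7A5, at 49.2 ± 2.78, stood at rank 4, against rank 7 in control cells. SLC1A3 had moved from rank 10 to rank 17 and SLC1A1 from rank 8 to rank 12. The summed level of all members was 377 and 367 CPM per kilobase in control cells and 390.4 and 390.7 after treatment, so the total was 1.05 times as high after treatment while its makeup differed.

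**Figure D1:**
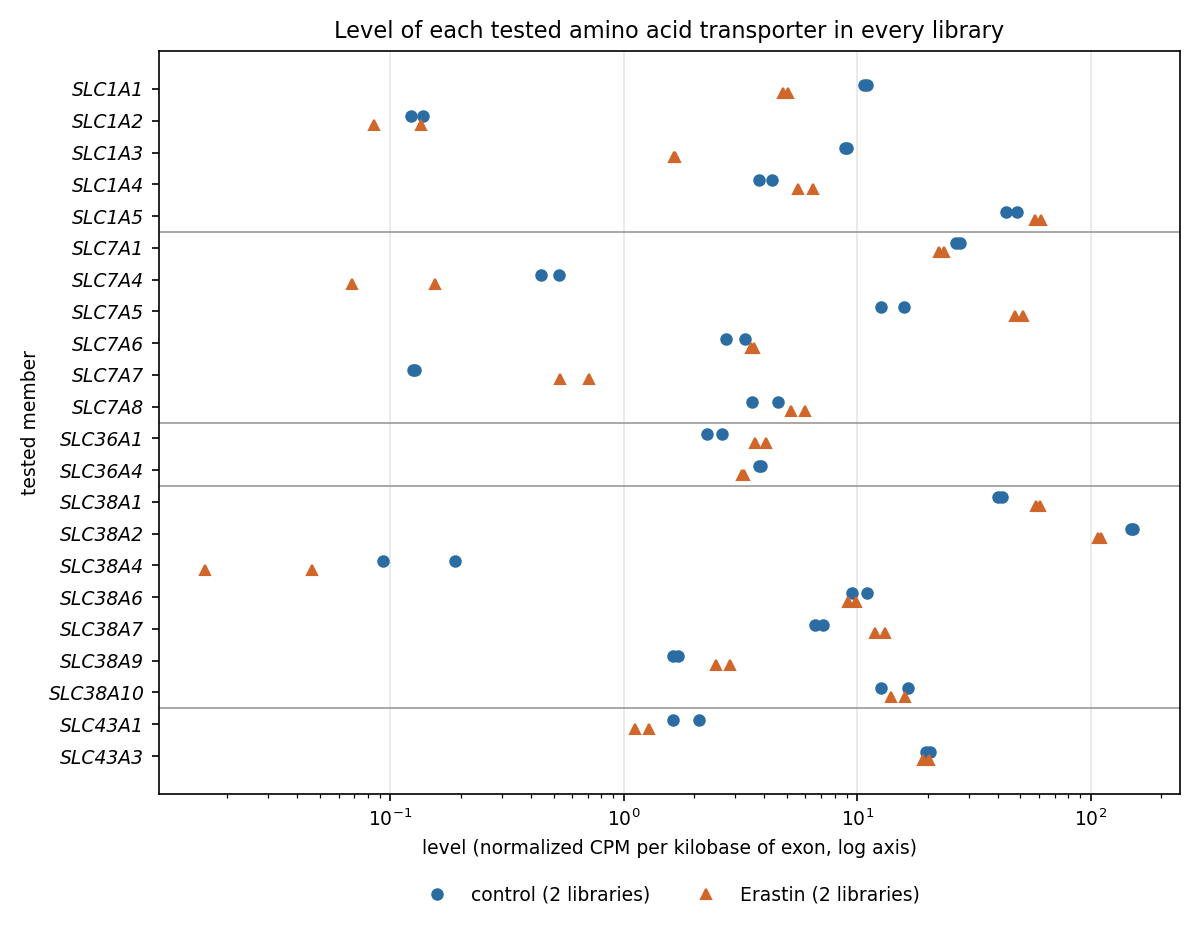
Level of the 22 tested members in each library, as normalized CPM per kilobase of exon on a log axis; circles are the 2 control libraries and triangles the 2 Erastin libraries, and horizontal lines divide the families. SLC38A2 lies furthest to the right in both groups, SLC7A5 and SLC7A7 lie further right with Erastin, and SLC1A1, SLC1A3, SLC7A4 and SLC38A4 lie further left.

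SLC7A5 and SLC7A7 were called upregulated, which is 2 of 22 tested members (9.09%), where 6.24% of all tested genes were. SLC1A1, SLC1A3 and SLC7A4 were called downregulated, which is 3 of 22 (13.6%) beside 9.34% of all tested genes. Without the fold threshold, 9 members (40.9%) passed the test with higher expression in Erastin-treated cells, where 23.2% of all tested genes did, and 6 members (27.3%) passed with lower expression, where 23.7% did. The 7 others had an adjusted p of 0.05 or more. Without Erastin 1 the number of lower members that passed was 3. The median log2 fold change of the tested members was 0.0061, and that of all tested genes was −0.0026. The values of both treated libraries exceeded those of both control libraries for 10 members and were below them for 8, beside 36.7% and 36.9% of all tested genes. The 2 tested members SLC7A4 and SLC38A4 reached the low-count filter in control cells alone, so they were tested only because of their counts there.

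**Figure D2:**
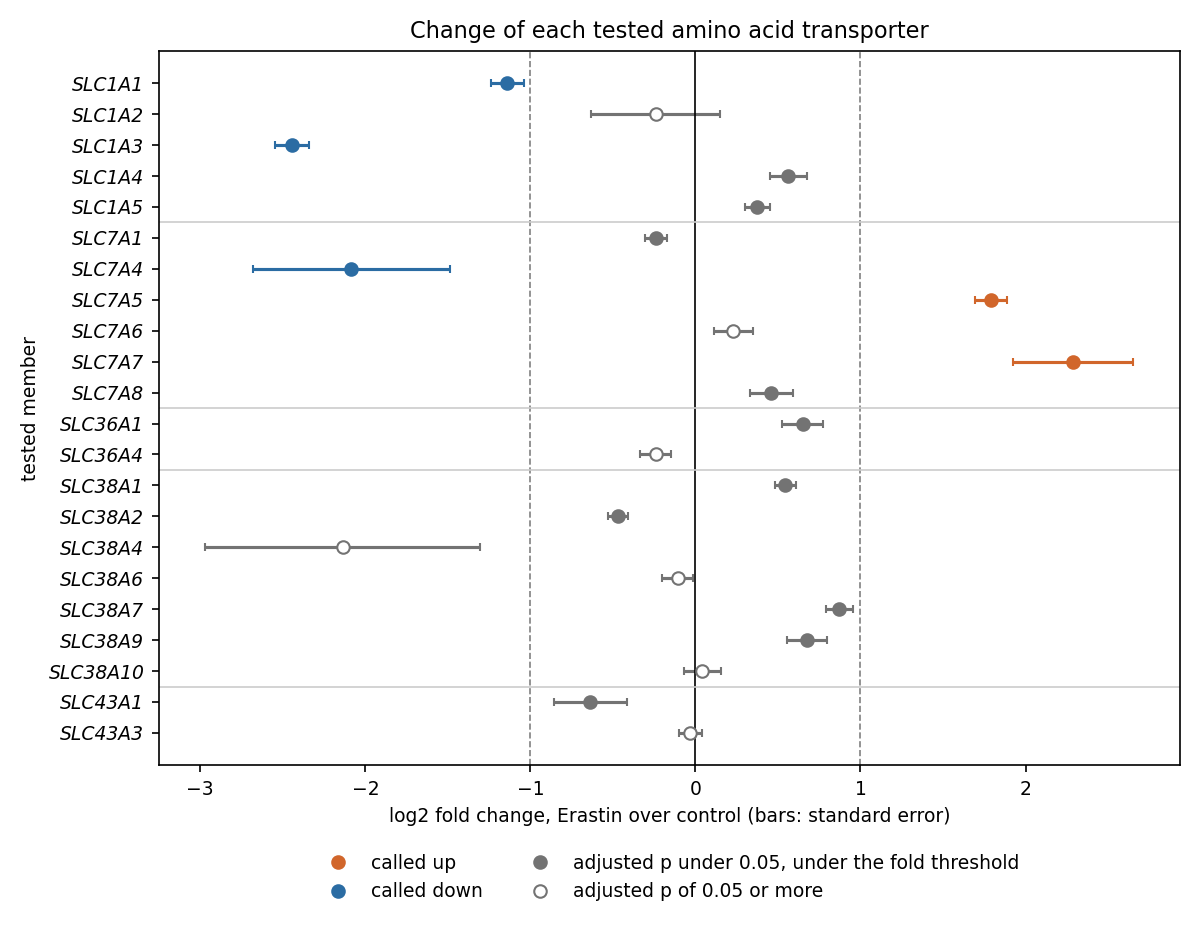
Log2 fold change of each tested member, Erastin over control, from edgeR with bars of 1 standard error; dashed lines mark the fold threshold of the calls, and colours and open symbols give the outcome of the test. SLC7A5 and SLC7A7 lie beyond the right line, SLC1A1, SLC1A3 and SLC7A4 beyond the left one, and SLC38A4 lies beyond it with an open symbol and a standard error of 0.833.

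**Figure D3:**
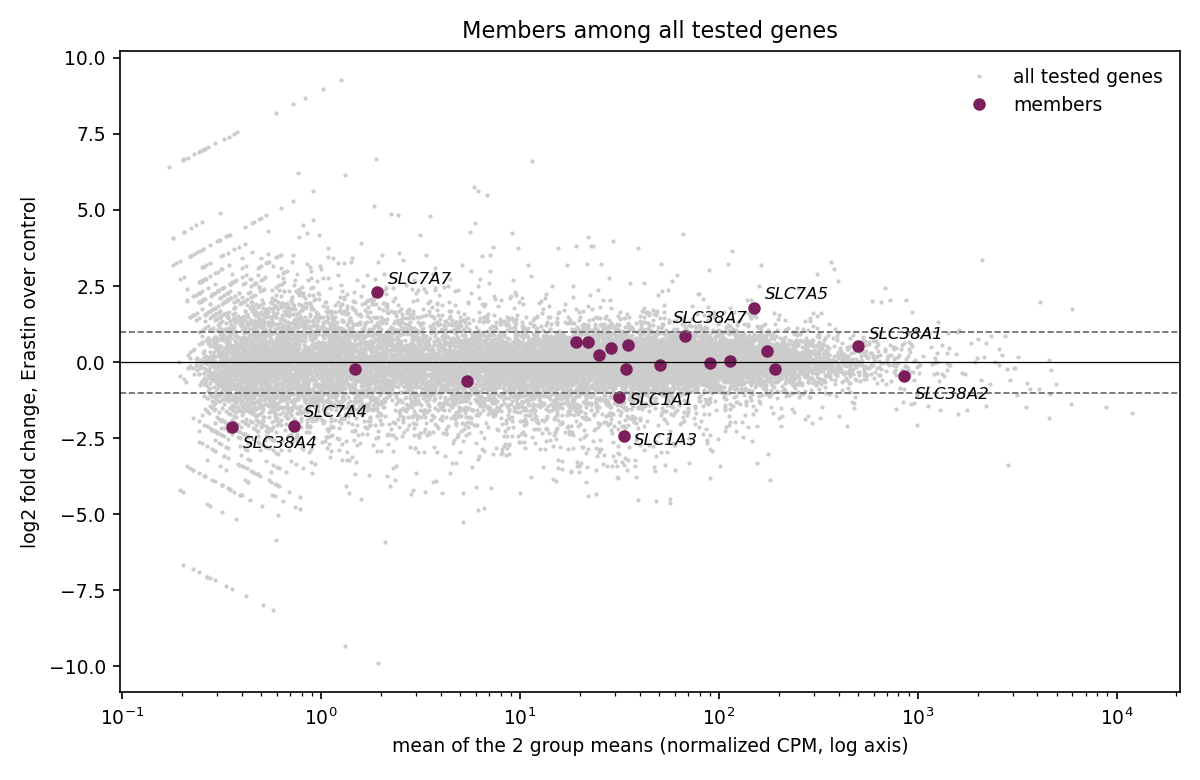
Log2 fold change against the mean of the group means in normalized CPM (log axis) for all 16751 tested genes (grey) and the 22 tested members (dark). Between the dashed lines of the fold threshold lie 16 members, and SLC7A5 is the called member with the highest mean.

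ATF4 dimers are known to bind the C/EBP-ATF response element. Its letters TGATGNAA, or TTNCATCA on the other strand, were searched in RefSeq promoter windows of GRCh38.p14 that reach from 250 bases before to 50 bases after a start site, because several members are known ATF4 targets. Of the 37 members, 30 had a window. A match stood in 5 of their 50 windows, each of a different gene, beside 3.62% of the 35116 windows of all genes and 4.46% of genes with a window. The 5 matches follow on the strand of the gene, 5′ to 3′, with the element in capitals.
SLC1A3: caggaaatgacTGATGCAAagcagggttaa
SLC1A4: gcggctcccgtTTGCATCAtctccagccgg
SLC1A5: gaggaagtggcTGATGCAAgctgtccaggg
SLC38A1: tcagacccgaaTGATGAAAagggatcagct
SLC7A1: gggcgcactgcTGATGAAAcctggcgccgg
The match of SLC1A3 lies at chr5:36596357-36596386, with the element starting 220 bases before a RefSeq start site that is upstream of the gene's start in the annotation of the counts. That of SLC1A4 lies at chr2:64989381-64989410, 7 bases before a start, and that of SLC1A5 at chr19:46784893-46784922, 97 bases before one. The match of SLC38A1 lies at chr12:46266502-46266531, 4 bases before a start, and that of SLC7A1 at chr13:29595663-29595692, 7 bases after one. For SLC1A4, SLC1A5 and SLC38A1 this start lies inside the gene in the annotation of the counts. Their other windows had no match. The same letters occur beside genes that changed in opposite ways: SLC1A4, SLC1A5 and SLC38A1 passed the test with higher expression, SLC1A3 and SLC7A1 with lower. SLC7A5 and SLC7A7, the upregulated members, had no match in these windows. Sequence outside the windows was not searched, and whether ATF4 acts on any of these genes was not tested.

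The well-expressed glutamate carriers of the SLC1 family, SLC1A3 and SLC1A1, fell after Erastin treatment. SLC1A3 (ENSG00000079215, chromosome 5, 36606355 to 36688334 on GRCh38), the glutamate and aspartate carrier of astrocytes, had 1741 and 1725 counts in control cells and 307 and 326 after treatment. The groups were far apart and the 2 libraries within each were close. Mean expression was 56.2 ± 0.995 CPM in control cells and 10.3 ± 0.0788 CPM after treatment (SD, n = 2 each), the largest fall among the 22 tested members by log2 fold change, at −2.45 (SE 0.103, edgeR adjusted p = 5.34e-09). SLC1A1 (ENSG00000106688, chromosome 9, 4490444 to 4587469), which carries glutamate and also cysteine, had 1312 and 1370 counts in control cells and 575 and 635 after treatment. Here too the groups did not overlap, and the log2 fold change was −1.14 (SE 0.10, edgeR adjusted p = 2.40e-06). With any 1 library left out, it stayed between −1.18 and −1.11 for SLC1A1 and between −2.47 and −2.43 for SLC1A3.

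SLC1A2 (ENSG00000110436), the other glutamate carrier of astrocytes, had 52 and 47 counts in control cells and 50 and 33 after treatment. The groups overlapped, and the log2 fold change of −0.24 (SE 0.392) came with an edgeR adjusted p of 0.651. Without Erastin 2 it was 0.058, with an adjusted p of 0.934 where those of all alternatives lay between 0.347 and 0.934. The summed level of SLC1A1, SLC1A2 and SLC1A3 averaged 19.97 ± 0.0412 CPM per kilobase (SD, n = 2) in control cells and 6.68 ± 0.151 (SD, n = 2) after treatment. The level of SLC1A3 relative to that of SLC1A1 was 0.847 and 0.804 in control cells and 0.341 and 0.328 after treatment, so the pair did not fall in proportion. SLC1A3-AS1, an antisense gene that shares no exon bases with SLC1A3 and is no member, had 29 and 26 counts in control cells and 4 and 8 after treatment; as the counting ignored strand, reads of an antisense gene and of its partner cannot be told apart in general.

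The neutral carriers of the same family rose, though by less than the fold threshold. SLC1A5 (ENSG00000105281, chromosome 19, 46774883 to 46788594), which takes up glutamine in exchange for other neutral amino acids, had 4917 and 4476 counts in control cells and 6082 and 6043 after treatment. All Erastin values lay above all control values, and the log2 fold change was 0.38 (SE 0.0741, edgeR adjusted p = 0.00134). SLC1A4 (ENSG00000115902, chromosome 2, 64988477 to 65023865), a carrier of alanine, serine and cysteine, had 809 and 930 counts in control cells and 1154 and 1407 after treatment. Its groups did not overlap either, and its log2 fold change was 0.56 (SE 0.111, edgeR adjusted p = 0.00130). An unnamed antisense gene shares 23.4% of the exon bases of SLC1A5 and had at most 10 counts itself; reads on both genes were not counted. Within the SLC1 family, 2 tested members thus passed the test in each direction.

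SLC7A5 and the heavy chain SLC3A2 rose together. SLC7A5 (ENSG00000103257, chromosome 16, 87830023 to 87869488), the LAT1 exchanger of leucine and other large neutral amino acids, had 2294 and 1868 counts in control cells and 7265 and 7044 after treatment. No Erastin value came near a control value. Expression rose 3.46-fold, with means of 67.5 ± 10.5 CPM in control cells and 233 ± 13.2 CPM after treatment (SD, n = 2 each) and a log2 fold change of 1.79 (SE 0.0980, edgeR adjusted p = 4.70e-08). Leaving out 1 library at a time gave 1.63 to 1.95. Among its 31-base words, taken from the longest transcript, 6.36% also occur elsewhere in the primary genome, where pseudogenes of SLC7A5 lie, and reads matching several places were not counted.

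SLC3A2 (ENSG00000168003), which is no member, had 2827 and 2976 counts in control cells and 9049 and 8518 after treatment, with a log2 fold change of 1.61 (edgeR adjusted p = 1.20e-08). On the per-length scale SLC3A2 was at 17.8 and 18.5 in control cells and at 58.4 and 52.3 after treatment. The SLC7A5 level divided by that of SLC3A2 was 0.886 and 0.685 in control cells and 0.876 and 0.902 after treatment, and these ranges overlapped. SLC7A11, the light chain that is not a member, was at 1.71 and 1.83 CPM per kilobase in control cells and at 22.6 and 22.4 after treatment.

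SLC7A7 (ENSG00000155465, chromosome 14, 22773222 to 22829820), a light chain that exports cationic amino acids in exchange for neutral ones, had 20 counts in each control library and 109 and 86 after treatment. The groups lay far apart at low counts, and the log2 fold change was 2.29 (SE 0.364, edgeR adjusted p = 2.80e-04), the largest rise among the 22 tested members. It stayed between 2.07 and 2.48 with 1 library left out. Its level remained low, at 0.126 ± 0.00141 CPM per kilobase (SD, n = 2) in control cells and 0.621 ± 0.125 (SD, n = 2) after treatment.

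The close relatives of these light chains had smaller fold changes; the difference between the genes was not tested. SLC7A8 (ENSG00000092068, chromosome 14, 23125295 to 23183674), the LAT2 exchanger of neutral amino acids, had 837 and 660 counts in control cells and 931 and 1124 after treatment. The groups did not overlap, though control 1 and Erastin 1 were close, and the log2 fold change was 0.46 (SE 0.133, edgeR adjusted p = 0.0133). Without control 2 it was 0.28 with an adjusted p of 0.0820, and without Erastin 2 it was 0.36 with 0.0956, the highest of the edgeR and DESeq2 alternatives, the lowest being 1.28e-05.

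SLC7A6 (ENSG00000103064, chromosome 16, 68264516 to 68301823), which exchanges cationic for neutral amino acids as SLC7A7 does, had 637 and 783 counts in control cells and 797 and 859 after treatment. Control 2 came close to Erastin 1, and the log2 fold change of 0.23 (SE 0.120) came with an edgeR adjusted p of 0.140. Without control 2 it was 0.37 with an adjusted p of 0.0291, where the alternatives ranged up to 0.626. SLC7A6OS on the opposite strand shares 44.4% of the exon bases of SLC7A6. Reads on both genes were not counted, and how many were left out is not known.

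Summed over SLC7A5, SLC7A6, SLC7A7, SLC7A8 and SLC7A10, the light chain level was 23.2 and 19.6 CPM per kilobase in control cells and 60.5 and 57.3 after treatment. SLC7A5 made up 68.0% and 64.4% of this sum in control cells and 84.5% and 82.4% after treatment. Relative to SLC7A8, the level of SLC7A5 was 3.46 and 3.57 in control cells and 9.85 and 7.91 after treatment. Most of the rise of this sum, which leaves out SLC7A11, was thus that of SLC7A5.

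**Figure D4:**
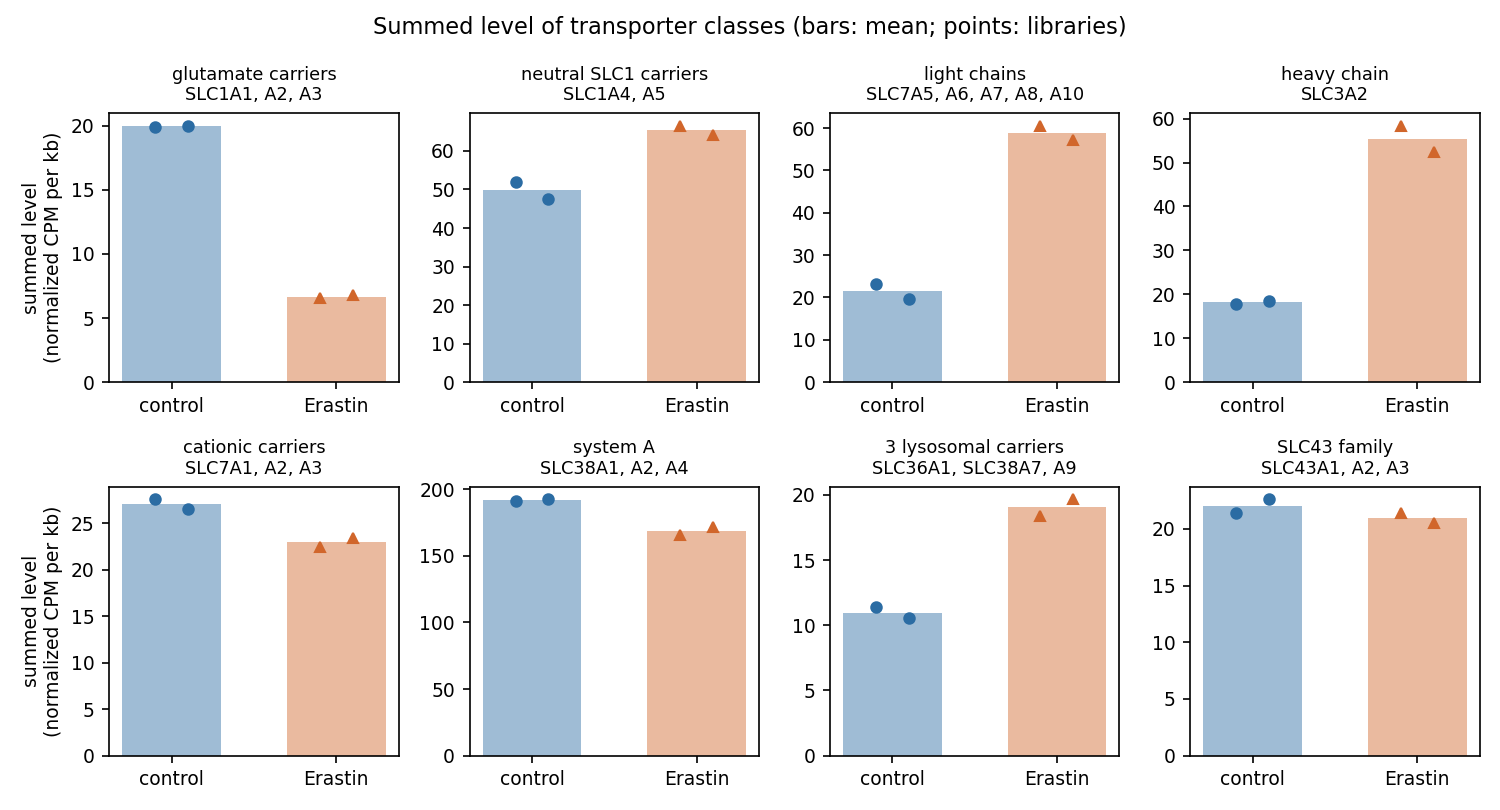
Summed level of 8 classes of transporters (normalized CPM per kilobase of exon, each panel with its own axis from 0); bars are means of the 2 libraries and points are the libraries. Glutamate carriers are lower with Erastin, light chains, the heavy chain SLC3A2 and the lysosomal carriers SLC36A1, SLC38A7 and SLC38A9 are higher, and system A, the cationic carriers and the SLC43 family differ less. These lysosomal carriers were put together after their values were seen.

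Among the cationic carriers, SLC7A1 (ENSG00000139514, chromosome 13, 29509410 to 29595688), the CAT1 carrier of arginine, lysine and ornithine, had 6485 and 6341 counts in control cells and 5168 and 5664 after treatment. Both Erastin values lay below both control values, and the log2 fold change was −0.24 (SE 0.0660, edgeR adjusted p = 0.0111). Without Erastin 1 it was −0.21 with an adjusted p of 0.125, and without Erastin 2 it was −0.27 with 0.0530, while the alternatives reached down to 0.00106. SLC7A4 (ENSG00000099960, chromosome 22, 21028718 to 21032840), a relative of the cationic carriers whose own substrate is not settled, had 33 and 40 counts in control cells and 5 and 12 after treatment. The groups did not overlap, and the log2 fold change was −2.08 (SE 0.597, edgeR adjusted p = 0.0130). It was −1.96 without control 2 and −1.62 without Erastin 1, with adjusted p of 0.0702 and 0.0700, and thus lost the call without either; over all alternatives the adjusted p lay between 0.00173 and 0.0702. P2RX6 on the opposite strand, with 588 to 737 counts, shares 4.62% of the exon bases of SLC7A4.

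The pair of abundant system A carriers moved in opposite directions. System A is the sodium-coupled uptake of alanine, serine, glutamine and other small neutral amino acids. SLC38A2 (ENSG00000134294, chromosome 12, 46358189 to 46372867) had 30148 and 31254 counts in control cells and 21193 and 22954 after treatment. It fell by 0.47 on the log2 scale (SE 0.0615, edgeR adjusted p = 6.39e-05), and its groups did not overlap. SLC38A1 (ENSG00000111371, chromosome 12, 46183063 to 46270017) had 12830 and 12439 counts in control cells and 17555 and 19157 after treatment. It rose by 0.55 on the log2 scale (SE 0.0638, edgeR adjusted p = 2.55e-05), again without overlap. Over all alternatives, the log2 fold change of SLC38A2 stayed between −0.49 and −0.42 and that of SLC38A1 between 0.50 and 0.60.

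On the per-length scale, SLC38A2 was 3.56 and 3.81 times as high as SLC38A1 in control cells and 1.83 and 1.82 times as high after treatment. The genes are neighbours, with 88.2 kb between them. SLC38A2 made up 39.6% and 41.5% of the level of all members in control cells and 27.5% and 28.3% after treatment. SLC38A4 (ENSG00000139209), the third system A carrier and best known from liver, lies 392 kb further along and had 24 and 12 counts in control cells and 2 and 6 after treatment. Its log2 fold change of −2.14 (SE 0.833) came with an edgeR adjusted p of 0.0537, and at these counts it did not pass the test. The sum of the 3 genes was 191 and 192 CPM per kilobase in control cells and 166 and 171 after treatment.

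The lysosomal carriers SLC38A7, SLC38A9 and SLC36A1 were put together after their values were seen, and each passed the test with higher expression, as 23.2% of all tested genes did. They are not all the members placed on lysosomes or endosomes: SLC36A4, described below, had lower values after treatment without passing the test, and SLC7A14 had too few counts to be tested. SLC38A7 (ENSG00000103042, chromosome 16, 58665109 to 58685104), which exports glutamine from the lysosome, had 1525 and 1426 counts in control cells and 2496 and 2883 after treatment. Both Erastin values were well above the control values, and the log2 fold change was 0.87 (SE 0.0828, edgeR adjusted p = 4.66e-06), the largest rise of the SLC38 family. SLC38A9 (ENSG00000177058, chromosome 5, 55625845 to 55773194), which reports lysosomal arginine to mTORC1, had 439 and 470 counts in control cells and 753 and 690 after treatment. There was no overlap, and the log2 fold change was 0.68 (SE 0.123, edgeR adjusted p = 7.82e-04).

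SLC36A1 (ENSG00000123643, chromosome 5, 151437046 to 151492381), a proton-coupled carrier of small amino acids such as glycine, alanine and proline, had 563 and 495 counts in control cells and 762 and 893 after treatment. Its groups did not overlap, and the log2 fold change was 0.65 (SE 0.123, edgeR adjusted p = 9.89e-04). Summed, these 3 genes were at 11.4 and 10.6 CPM per kilobase in control cells and at 18.4 and 19.7 after treatment, 1.74 times as high on average. As they were put together after their values were seen, the rise of the sum follows from that choice. Under every alternative run, including each left-out library, all 3 passed the test in the same direction.

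SLC36A4 (ENSG00000180773, chromosome 11, 93144171 to 93197964), a carrier of proline and tryptophan and the SLC36 member with the highest level in control cells, had 1125 and 1166 counts in control cells and 930 and 998 after treatment. The groups did not overlap, but the log2 fold change of −0.24 (SE 0.0946) came with an edgeR adjusted p of 0.0544. With at least 10 counts required in every library it was 0.04997, just under the threshold, and with counts halved it was 0.0449; over all alternatives it lay between 0.0449 and 0.205.

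The less well known SLC38 carriers did not pass the test. SLC38A6 (ENSG00000139974) had 1497 and 1758 counts in control cells and 1405 and 1602 after treatment, with overlapping groups, a fitted log2 difference of −0.11 and an edgeR adjusted p of 0.380. SLC38A10 (ENSG00000157637) had 3891 and 3027 counts in control cells and 3688 and 3397 after treatment. The control libraries enclosed the Erastin libraries, and the log2 fold change was 0.04 (SE 0.111, edgeR adjusted p = 0.786). It depended on which control library was kept: without control 1 it was 0.24 with an adjusted p of 0.0107, and without control 2 it was −0.15 with 0.135, where the alternatives ranged up to 0.837.

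In the SLC43 family, SLC43A1 (ENSG00000149150, chromosome 11, 57484534 to 57515786), a carrier of branched-chain amino acids and phenylalanine, had 176 and 230 counts in control cells and 118 and 142 after treatment. The groups did not overlap, and the log2 fold change was −0.64 (SE 0.219, edgeR adjusted p = 0.0321). With DESeq2 the adjusted p was 0.0910. Without control 2 the log2 fold change was −0.45 with an adjusted p of 0.181, and without Erastin 1 it was −0.54 with 0.138, while the lowest adjusted p of the alternatives was 0.00496.

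SLC43A3 (ENSG00000134802, chromosome 11, 57406954 to 57427580) had 2732 and 2881 counts in control cells and 2737 and 2728 after treatment. The groups overlapped, and the log2 fold change of −0.03 (SE 0.0712) came with an edgeR adjusted p of 0.762. Scaling by library totals turned its sign, to 0.019, as did leaving out Erastin 2, to 0.0078. It lies 57.0 kb from SLC43A1, and 29.9% of its exon bases are shared with a second protein-coding gene on the same strand that had at most 1 count. The summed SLC43 level was 21.4 and 22.6 CPM per kilobase in control cells and 21.4 and 20.5 after treatment.

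The 15 members that were not tested had at most 16 counts in any library. SLC1A6, SLC7A3, SLC7A10, SLC36A2, SLC36A3, SLC38A8 and SLC38A11 had 0 counts in all 4 libraries. Counting error alone allows up to 0.102 CPM in the smallest library (3 counts, taken as independent). As mates of a pair were counted separately, this floor may be too low. SLC1A6 is a glutamate carrier of Purkinje cells, SLC7A10 a light chain for small neutral amino acids, and SLC7A3 a cationic carrier. SLC38A5 and SLC38A3, the glutamine carriers of system N, had 4, 16, 6 and 4 counts and 4, 0, 12 and 0 counts in control 1, control 2, Erastin 1 and Erastin 2. SLC1A7, the glutamate carrier of the retina, had 3 counts in control 1 alone, SLC7A14 had 2 in control 2 alone, and SLC7A2, a cationic carrier, had 2 in Erastin 2 alone. SLC7A13 had 1 and 0 counts in control cells and 10 and 5 after treatment.

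SLC43A2, a carrier of branched-chain amino acids, and SLC7A9, the light chain of kidney cystine uptake, each had 0 counts in both control libraries and 8 and 5 after treatment. Set against 3 counts over the control group, the mean of either gene after treatment was 4.38 times as high. This ratio leaves out the counting error of the Erastin counts and is no lower bound. Without the low-count filter, the adjusted p from edgeR was 0.0880 for both. Of the 31-base words of the longest SLC43A2 transcript, 87.8% also occur on alternate scaffolds of the genome, so reads that match several places may have been left out, and its counts do not show that the gene was silent.

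Beyond the members, 33 other genes of amino acid transport were listed and 21 of them tested. Of these, 3 were called upregulated (14.3%), beside 6.24% of all tested genes, and 1 downregulated (4.76%), beside 9.34%. Besides SLC3A2, the upregulated genes were SLC6A9, a glycine carrier, and SLC25A38, which brings glycine into mitochondria. SLC6A9 had 200 and 242 counts in control cells and 440 and 557 after treatment, with a log2 fold change of 1.18 (edgeR adjusted p = 9.64e-05). SLC25A38 had 1700 and 1592 counts against 3283 and 3320, with a log2 fold change of 1.01 (edgeR adjusted p = 6.34e-07). Both had groups that lay well apart, but SLC25A38 lay at the fold threshold and its call was lost without control 2 (log2 fold change 0.95) and without Erastin 1 (0.98). The upregulated genes of the list numbered 2 in both of these cases, and 4 without Erastin 2.

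SLC25A29, a mitochondrial carrier of arginine and lysine, was the downregulated gene, with 1158 and 1027 counts in control cells, 402 and 424 after treatment and a log2 fold change of −1.40 (edgeR adjusted p = 1.60e-06). Without the fold threshold, 7 of the 21 (33.3%) passed the test with higher expression, beside 23.2% of all tested genes, and 4 (19.0%) with lower expression, beside 23.7%. The median log2 fold change of the 21 was 0.0002. Of the lysosomal genes of this list, CTNS for cystine, SLC66A1 for cationic amino acids and MFSD12 for cysteine had log2 fold changes of 0.51, 0.94 and 0.37 and passed the test. SLC15A3 and SLC15A4, the lysosomal carriers of histidine and peptides, did not pass it, with −0.0081 and −0.16 (edgeR adjusted p = 0.986 and 0.143). SLC3A1, the heavy chain partner of SLC7A9, had 8 and 0 counts in control cells and 2 and 0 after treatment.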

How the data were processed

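RNA-seq of U87MG cells gave 4 libraries: 2 came from control cells, 2 from cells kept in 10 μM Erastin over 72 h. The authors deposited raw read counts per gene, without normalization, in a table whose header names featureCounts 2.0.3 and Ensembl release 90 on GRCh38. The submitters' processing notes name HISAT2 2.1.0 and featureCounts 2.0.4, and the study's methods name a different counter. Strand was ignored, mates of a pair were counted separately, and reads on several genes or places were dropped, which lowers the counts of overlapping or duplicated genes. The authors deposited no fractional values such as estimated counts would have, and rounding changed 0 of them. Symbols were joined for 57532 of 58302 genes.

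The statistical work used edgeR 4.0.16 under R 4.3.3. Genes passing filterByExpr (minimum count of 10) numbered 16751. Normalization was by TMM (factors 0.971 to 1.02), the test was the two-sided quasi-likelihood F test, and adjustment was by Benjamini-Hochberg over all tested genes, with the thresholds of the study's methods. Standard errors were the fold change divided by the root of F. The biological coefficient of variation was 10.3%. An exact permutation of 2 against 2 libraries reaches no p below 0.333, so p-values rest on a variance shared across genes. Replicates are biological per the design text of the series, and the labels do not pair them. As PCR copies were not removed by molecular identifiers, floors cover counting error only. The model was tested on data simulated from its own fit, which cannot check its assumptions.

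Members and gene lists were chosen with earlier results of these data known. Full values were given for called members, for the member with the highest level in each family, and for members whose call or sign changed when a library was left out, with the largest rise and fall of each family as examples; the other tested members were given values beyond this rule. Overlaps came from the exon coordinates of the count table, and levels used its exon lengths. GENCODE release 44 supplied the gene types and the transcript sequences. The alternatives comprised DESeq2 1.42.0, scaling by RLE or by library totals, omitting the low-count filter or requiring 10 counts everywhere, a replicate block, counts halved and rounded up, and each library left out. ChIP-seq and HiChIP data were not analysed here.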

Additional observations from a re-analysis of the deposited data

How the results depend on the processing

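Over 11 alternatives, the log2 fold changes of the 22 tested members were recomputed 239 times. Direction and outcome of the test were kept in 221, the adjusted p lost the threshold in 9 and newly passed it in 4, and 5 turned in sign, all of members that had not passed. These were SLC1A2 without Erastin 2 (0.058, with a range of −0.61 to 0.058 over the left-out libraries), SLC38A10 without control 2 (−0.15, range −0.15 to 0.24) and without Erastin 1 (−0.057), and SLC43A3 with library totals (0.019) and without Erastin 2 (0.0078, range −0.070 to 0.0078). For 13 members no alternative changed the outcome. Leaving out 1 library gave 2 upregulated members each time, 2 or 3 downregulated members, 8 to 10 members that passed with higher expression and 3 to 6 with lower expression, the 3 being without Erastin 1; the lone library left in a group is assumed to vary like the other group. Leaving out libraries gave 895 to 1066 upregulated and 1446 to 1526 downregulated genes in all.

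The labels name no pairing of the replicates, and the deviations of same-numbered libraries had a correlation of 0.0203 across genes. A replicate block gave 1039 upregulated and 1568 downregulated genes; the members gave 2 and 3, and 9 and 6 passed the test, the same genes as without it. SLC7A4 and SLC38A4 gave no value with at least 10 counts in every library, nor SLC38A4 with counts halved. Depth limits the 15 untested members, for which a change of a few counts was not detectable.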
